A study of Homo sapiens with 4 samples.

Results

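Chromosome 17 held 344 of the 5528 intervals in the S100A10 ChIP-seq peak lists of HCT116 and LoVo polyploid giant cancer cells (PGCCs) with daughter cells. The intervals were chosen by their chromosome: every line of either list on chromosome 17 was taken, and lines with equal start and end, which are several summits of 1 interval, were merged. HCT116 contributed 305 of its 4148 intervals, with 307 summits, and LoVo 39 of its 1380, with 40 summits. The chromosome was taken up because its interval counts in these lists had been seen, so those counts are given as a description, without a test. HCT116 and LoVo are human colorectal cancer cell lines, and both had been kept in 535.5 µM cobalt chloride (CoCl2), an agent that mimics hypoxia, for 48 h, per the sample labels, to induce PGCCs, large cells with multiplied genomes that bud off smaller daughter cells. Each line had 1 library of DNA precipitated with an antibody against S100A10 and 1 library of its input chromatin, 4 libraries in all. The lists rested on 16561424 ChIP and 14962190 input tags in HCT116, and on 19762814 ChIP and 12925105 input tags in LoVo. No untreated cells, no second precipitation and no control antibody entered these lists, so a value of 1 line has no replicate check, and a difference between the lines is one between single libraries. Confidence intervals cover counting error only.

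S100A10 is a small protein of the S100 family that usually sits with annexin A2 at the plasma membrane and has no known DNA-binding domain. ChIP-seq counts the DNA fragments brought down by an antibody, and the peak caller MACS2 reports an interval where the tags pile up beyond what the input leads it to predict. Chromosome 17 is a gene-rich chromosome whose short and long arms meet at a centromere flanked by satellite and duplicated sequence, on which short reads are hard to place. The stretch from 21 to 28 Mb, which holds the centromere, was therefore kept apart from both arms. HCT116 is known from its karyotype to carry additional material of the long arm of chromosome 17. Copy number was not measured here, and its part in the counts was not tested.

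Of the promoters of chromosome 17 that overlapped an HCT116 interval, 4 are printed because they show what the sequence under such an interval looked like close to a gene start. They are taken from RefSeq (GRCh38.p14), run from 250 bases before to 50 bases after the annotated start, and are written 5′ to 3′ on the strand of the gene, with the bases that lay inside the interval in capitals. SEPTIN9, a septin of the cytoskeleton, is shown at chr17:77453777-77454076 on the plus strand. CHAD, which encodes the matrix protein chondroadherin, is shown at chr17:50468831-50469130 on the minus strand and lay wholly inside its interval. CDK3, a cyclin-dependent kinase, is shown at chr17:76000605-76000904 on the plus strand, and SCRN2, which encodes secernin 2, at chr17:47841224-47841523 on the minus strand.
SEPTIN9: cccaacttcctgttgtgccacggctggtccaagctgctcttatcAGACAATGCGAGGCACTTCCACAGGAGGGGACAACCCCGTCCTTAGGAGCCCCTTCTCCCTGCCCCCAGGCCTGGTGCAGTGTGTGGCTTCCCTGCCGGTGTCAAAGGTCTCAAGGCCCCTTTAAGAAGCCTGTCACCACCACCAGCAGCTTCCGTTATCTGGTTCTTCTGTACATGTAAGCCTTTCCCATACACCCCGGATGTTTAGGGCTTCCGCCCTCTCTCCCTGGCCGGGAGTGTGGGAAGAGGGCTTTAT
CHAD: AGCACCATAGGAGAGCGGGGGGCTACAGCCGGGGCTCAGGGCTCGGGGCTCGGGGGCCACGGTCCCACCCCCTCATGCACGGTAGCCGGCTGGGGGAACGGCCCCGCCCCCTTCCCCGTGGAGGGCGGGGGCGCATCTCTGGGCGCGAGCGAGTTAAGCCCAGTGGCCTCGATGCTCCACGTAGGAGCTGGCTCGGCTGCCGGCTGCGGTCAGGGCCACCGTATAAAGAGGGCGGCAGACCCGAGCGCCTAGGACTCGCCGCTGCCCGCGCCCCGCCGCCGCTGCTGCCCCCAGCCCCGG
CDK3: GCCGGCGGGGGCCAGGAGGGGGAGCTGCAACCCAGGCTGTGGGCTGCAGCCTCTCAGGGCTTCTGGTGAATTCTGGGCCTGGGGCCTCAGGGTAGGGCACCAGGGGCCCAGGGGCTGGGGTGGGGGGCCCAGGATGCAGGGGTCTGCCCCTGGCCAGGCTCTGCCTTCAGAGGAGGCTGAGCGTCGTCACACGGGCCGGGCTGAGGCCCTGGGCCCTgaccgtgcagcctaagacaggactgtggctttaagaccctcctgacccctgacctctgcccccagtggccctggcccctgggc
SCRN2: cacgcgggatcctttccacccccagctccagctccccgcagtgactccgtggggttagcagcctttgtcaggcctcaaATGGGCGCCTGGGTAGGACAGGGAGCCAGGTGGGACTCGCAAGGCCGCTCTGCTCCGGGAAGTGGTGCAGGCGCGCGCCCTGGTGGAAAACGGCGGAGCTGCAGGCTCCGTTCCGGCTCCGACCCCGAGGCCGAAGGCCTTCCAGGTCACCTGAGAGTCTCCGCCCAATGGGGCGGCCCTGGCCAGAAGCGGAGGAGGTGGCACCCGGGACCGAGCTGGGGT

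The SEPTIN9 interval had its summit 36 bases upstream of that start with 8 tags, 3.65-fold over its background, at a −log10 q of 0.566. At CHAD the summit lay 39 bases upstream and also had 8 tags. At SCRN2 it lay 44 bases upstream with 9 tags and a −log10 q of 1.27, and at CDK3 196 bases upstream with 8 tags. None of these 4 intervals reached a q of 0.05. Across the chromosome 1639 promoter windows of 1262 genes were in the table, and 10 windows of 9 genes overlapped an HCT116 interval. The others belonged to CYB5D2, with 2 starts, PGS1, RBFOX3, LINC01497 and LOC124904061, and the last of these faces CDK3 under the same interval. No window overlapped a LoVo interval. The median GC content of the 1639 windows was 62.0%, with quartiles of 54.0% and 70.0%, against 58.3% at SEPTIN9, 75% at CHAD, 71.3% at CDK3 and 69.3% at SCRN2. Of the other overlapping windows, those of CYB5D2 had 67% and 63.7%, LOC124904061 69.7%, PGS1 71%, RBFOX3 51.7% and LINC01497 48.3%.

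Of the 95 microRNA genes annotated on chromosome 17, 1 had its hairpin inside an interval, an HCT116 one. For comparison, HCT116 intervals overlapped 5.45% of all genes of chromosome 17 and 2.26% of those of all assembled chromosomes. MIR196A1, which sits in the HOXB cluster of homeobox genes and gives rise to miR-196a, is annotated at chr17:48632490-48632559 on the minus strand, within the HCT116 interval at chr17:48632344-48632603. That interval had 7 tags, a 3.25-fold enrichment and a −log10 q of 0.0148. Its mature products are printed from RefSeq with the seed, bases 2 to 8, in capitals.
hsa-miR-196a-5p: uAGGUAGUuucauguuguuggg
hsa-miR-196a-1-3p: cAACAACAuuaaaccacccga

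The first comparison asked how large a share of the intervals chromosome 17 took in each line. In HCT116 it held 8.76% of the 3483 intervals on assembled chromosomes (exact Clopper-Pearson 95% interval 7.84% to 9.74%), and in LoVo 3.85% of 1014 (2.75% to 5.22%). At a q of 0.05 or less the shares were 5.95% in HCT116 and 5.03% in LoVo, at a −log10 q of at least 2 they were 6.02% and 5.17%, and among intervals enriched at least 5-fold the order turned, with 4.10% in HCT116 (11 intervals of chromosome 17) and 6.25% in LoVo (4 intervals). Per length this was 3.66 intervals per Mb in HCT116, against 1.06 per Mb on the other assembled chromosomes, and 0.469 per Mb in LoVo, against 0.325 per Mb. Most LoVo intervals lay in the pericentromere, and the arms alone had 0.144 per Mb. For 22 other chromosomes, each without its longest gene-free stretch and 2 Mb on either side, the median was 0.106 per Mb in LoVo and 8 of 22 lay above chromosome 17. In HCT116 that median was 0.660 per Mb and 1 of 22 lay above. The stretch left out of each other chromosome was set by its genes alone, so dense sequence beside it could stay in. On chromosome 21 it ended at 7.01 Mb, and 248 HCT116 and 106 LoVo intervals between there and 13 Mb were counted. The comparison with chromosome 17, whose limits were set otherwise, is therefore not like for like. Without 21 to 28 Mb the LoVo share was 1.12%, while in HCT116 the arms had 3.42 per Mb and the share was 7.59%. Chromosome 17 ranked 2 of 24 by density in HCT116 and 8 of 24 in LoVo. The lines also differed in the smallest pile that could be called, which was 6 tags in HCT116 and 8 tags in LoVo.

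Along the chromosome the HCT116 intervals were unevenly spread. A single change in density was searched for on a 1 Mb grid over the arms and fell at 45 Mb on the long arm, with no other grid point within 2 log-likelihood units of it. Before 45 Mb HCT116 had 21 intervals in 38 Mb of arm sequence, or 0.553 per Mb. Beyond it, HCT116 had 240 intervals in 38.2 Mb, or 6.28 per Mb. The density beyond was thus 11.4 times that before (exact binomial 95% interval 7.26 to 18.7), and 92.0% of the arm intervals (88.0% to 94.95%) lay on that side. Since the change was placed on these same intervals, the ratio describes them and tests nothing. The stretch beyond made up 1.24% of the assembled length and held 6.89% of all HCT116 calls on assembled chromosomes. Against the median of 22 other chromosomes without their longest gene-free stretch, 0.660 per Mb, the density was 9.51 times as high beyond the change and 0.837 times as high before it. Against the mean of all other assembled chromosomes with their pericentromeres, 1.06 per Mb, these were 5.93 and 0.522 times.

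No such step was seen in LoVo. With the same 45 Mb boundary, which was not placed on LoVo values, LoVo had 9 intervals before and 2 beyond, or 0.237 and 0.0523 per Mb. The density beyond was 0.221 times that before, with an interval of 0.0232 to 1.07 that includes equality. The exact Poisson 95% interval of the 2 beyond is 0.242 to 7.22. What that length would have held in LoVo depended on the reference, and was 4.04 intervals at the median density of the 22 other chromosomes, 8.02 at their pooled density and 12.4 at the mean of all other assembled chromosomes with their pericentromeres. The pooled density includes 106 LoVo intervals of chromosome 21 that lay before 13 Mb, beside the stretch left out there. These values are given as a description, and the count was not tested against them. The 2 LoVo intervals beyond the change began at positions 50492865 and 64920897 and had 8 tags each and a −log10 q of 0. The ratios of the lines thus lay on opposite sides of 1, and the difference was not tested, as each line had 1 ChIP library.

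**Figure D1:**
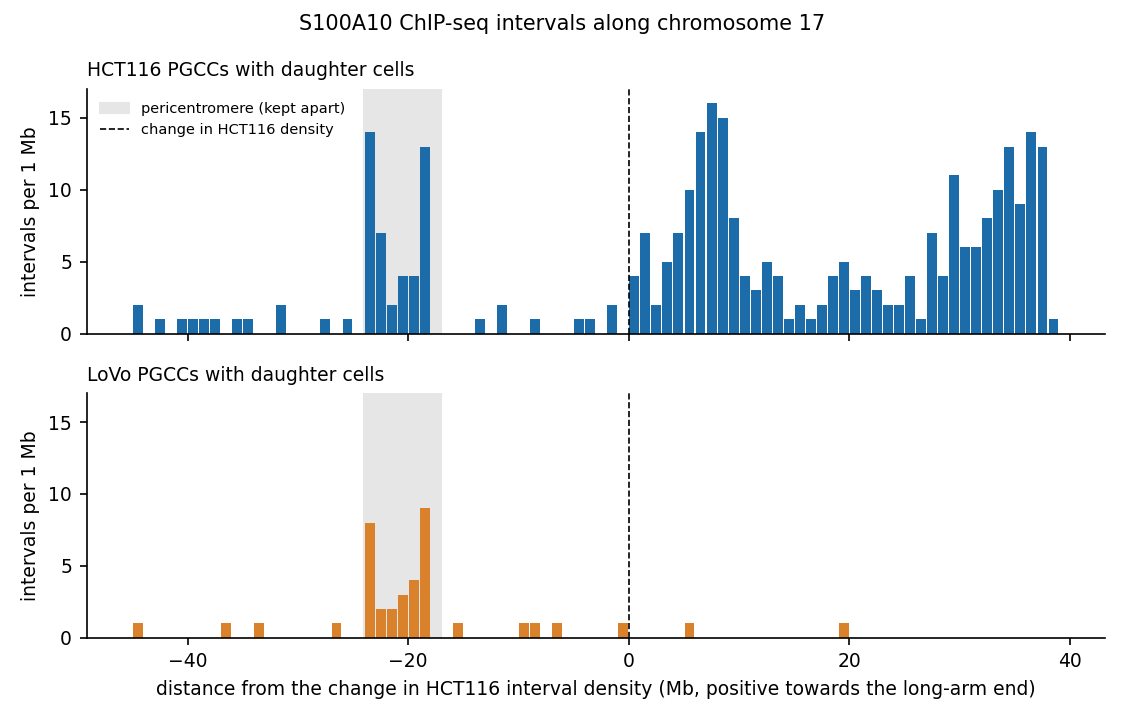
Intervals per 1 Mb of chromosome 17 (vertical axis) against the distance in Mb from the change in HCT116 density (horizontal axis, positive towards the end of the long arm), HCT116 above and LoVo below; the grey band is the pericentromere. All 39 HCT116 bars beyond the change hold at least 1 interval and reach 16, while LoVo has 2 intervals there and both lines have their bars in the grey band.

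The last HCT116 interval before the boundary lay at chr17:43320198-43320490 with a −log10 q of 0.0148, enriched 3.18-fold. The first one beyond lay at chr17:45411494-45411753 with a −log10 q of 0.566, enriched 3.65-fold, which left 2091 kb between them without an interval. All 39 bins of 1 Mb beyond the change held at least 1 HCT116 interval, and 9 of them held at least 10. Before it 21 of 38 bins held none, and the fullest held 2. The median distance between neighbouring HCT116 intervals was 78.4 kb beyond the change, against 1463 kb on the short arm and 1307 kb on the long arm before it.

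Counted by arm, HCT116 had 13 intervals on the 21 Mb of the short arm, or 0.619 per Mb, and 248 on the 55.2 Mb of the long arm, or 4.49 per Mb, a ratio of 7.25 (4.16 to 13.8). This ratio rested on the pericentromere limits and was 3.59 with 22 to 27 Mb kept apart and 2.84 with the pericentromere split at 25 Mb between the arms. LoVo had 4 and 7, or 0.190 and 0.127 per Mb, a ratio of 0.665 (0.169 to 3.10), which was 0.228 and 0.452 under the same alternatives. Only 8 of the 248 HCT116 long-arm intervals lay between the pericentromere and the change. The long arm was not dense throughout in HCT116, and its first 17 Mb had 0.471 per Mb, which is below the short arm's 0.619.

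In windows of 5 Mb, HCT116 had 1 to 4 intervals in each of the 7 windows before the change that lie outside 20 to 30 Mb, and 14 to 63 in each of the 8 windows beyond it, so the groups, split at a boundary placed on these counts, did not overlap. LoVo had at most 1 in any window beyond and none in 6 of the 8. Over all 631 windows of the assembled chromosomes the median was 2 in HCT116 and 0 in LoVo, and 7.45% of windows reached the lowest HCT116 count beyond the change, 14. Within the stretch the density was not even. The highest window ran from 50 to 55 Mb with 63 intervals, or 12.6 per Mb, and the window before it had 25. The 3 windows from 55 to 70 Mb held 17, 14 and 14. From 70 Mb the counts rose again to 27, then 43, then 37 in the last 3.24 Mb. A fit with 5 levels placed its further boundaries at 50, 55 and 74 Mb, and the first boundary was at 45 Mb with every number of levels fitted. From 55 to 74 Mb the density was 3.21 per Mb and from 74 Mb to the last annotated gene 9.85 per Mb.

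The number of protein-coding genes was set beside these counts. The stretch beyond the change held 450 protein-coding genes, or 11.8 per Mb, and the arms before it held 707, or 18.6 per Mb. Coding genes were thus sparser where HCT116 intervals were denser, and per coding gene the HCT116 ratio was 18.0 in place of 11.4. For LoVo the same ratio per coding gene was 0.349. The 50 to 55 Mb window, highest in HCT116 intervals, had 7 coding genes per Mb, and the 74 Mb to end segment, the other maximum, had 20.99. The window richest in coding genes, 40 to 45 Mb with 182, lay just before the change and had 4 HCT116 intervals. Across the 15 arm windows Pearson's r between coding genes and HCT116 intervals per Mb was −0.116 and Spearman's coefficient −0.0889. Over the 8 windows beyond the change alone r was 0.436 and Spearman's coefficient 0.307, and over the 7 before it r was 0.408 and Spearman's coefficient 0.617. These describe windows of 1 library that lie next to each other. The part of gene density in the step at 45 Mb was not tested beyond these values.

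**Figure D2:**
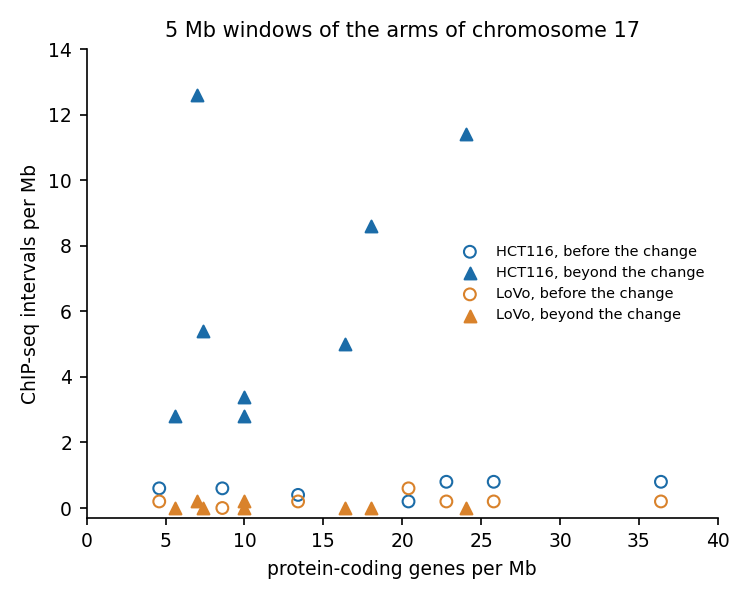
Intervals per Mb (vertical axis) against protein-coding genes per Mb (horizontal axis) in the 15 windows of 5 Mb on the arms of chromosome 17, HCT116 in blue and LoVo in orange, open circles before and filled triangles beyond the change. The 8 blue triangles lie at 2.80 to 12.6 intervals per Mb and every other point lies below 1.

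The same search was run on the other assembled chromosomes, to see whether such a step in HCT116 was found elsewhere. Over 23 chromosomes searched, 4 had a density beyond the change more than 5 times that before it. On chromosome 10 the change fell at 98 Mb with 0.585 and 6.15 HCT116 intervals per Mb, a ratio of 10.5. On chromosome 16 it fell at 79 Mb with 1.24 and 10.8 per Mb, a ratio of 8.71. On chromosome 8 it fell at 132 Mb with a ratio of 5.19, but the outermost grid points within 2 log-likelihood units of it were 67 and 133 Mb. Chromosome 17 had the highest of these 4 ratios, but by the gain in log-likelihood its change ranked 4 of 23. Steps down were found as well, with ratios of 0.0201 on chromosome 21, which had the highest gain, and 0.0986 on chromosome 14. On chromosome 21 the dense side ran only from 7.01 to 13 Mb, directly beside the stretch left out. In LoVo the counts before and beyond these HCT116 boundaries were 7 and 3 on chromosome 10, or 0.0773 and 0.0838 per Mb. On chromosome 16 they were 14 and 2, or 0.217 and 0.178 per Mb. They were 20 and 1 on chromosome 8, or 0.160 and 0.0766 per Mb, and 9 and 2 on chromosome 17, or 0.237 and 0.0523 per Mb. A step up towards the end of a long arm in HCT116 was therefore not found on chromosome 17 alone.

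**Figure D3:**
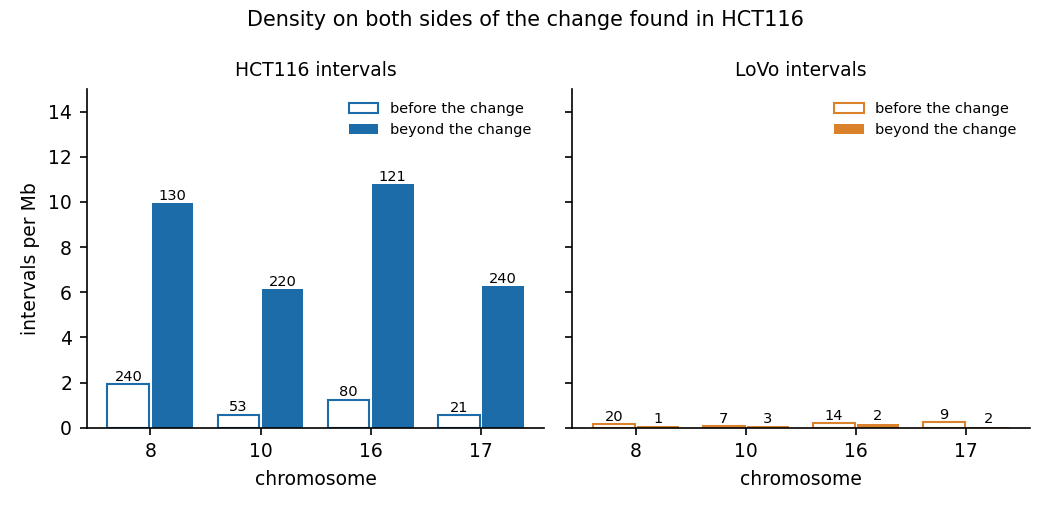
Intervals per Mb (vertical axis) before (open bars) and beyond (filled bars) the change found in HCT116, on the 4 chromosomes where the ratio was over 5, HCT116 on the left and LoVo on the right, with the number of intervals printed above each bar. Each filled HCT116 bar is taller than its open bar, and all LoVo bars are under 0.3 per Mb.

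The intervals beyond the change were weak. Their median was 8 tags and their maximum 13, and 219 of the 240 (91.3%) had 6 to 9 tags. There were 43 with 6 tags, 69 with 7, 72 with 8 and 35 with 9, and 21 with 10 or more. The median fold enrichment was 3.25, with a range of 2.28 to 5.65. Only 16 of the 240 (6.67%, exact interval 3.86% to 10.6%) had a q of 0.05 or less, where 25.7% of all HCT116 intervals did, and 69 (28.8%) had a −log10 q of 0. The local background that MACS2 took from the input stood at its genome-wide mean, within a tolerance of 0.02, for 157 of the 240 (65.4%) and never rose above 2.39 times that mean. The 21 HCT116 intervals on the arms before the change had a median fold enrichment of 3.25 on the short arm and 3.22 on the long arm, and none of them had a q of 0.05 or less. Median tags were 8 on the short arm and 7.5 on the long arm before the change, close to the 8 beyond it.

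**Figure D4:**
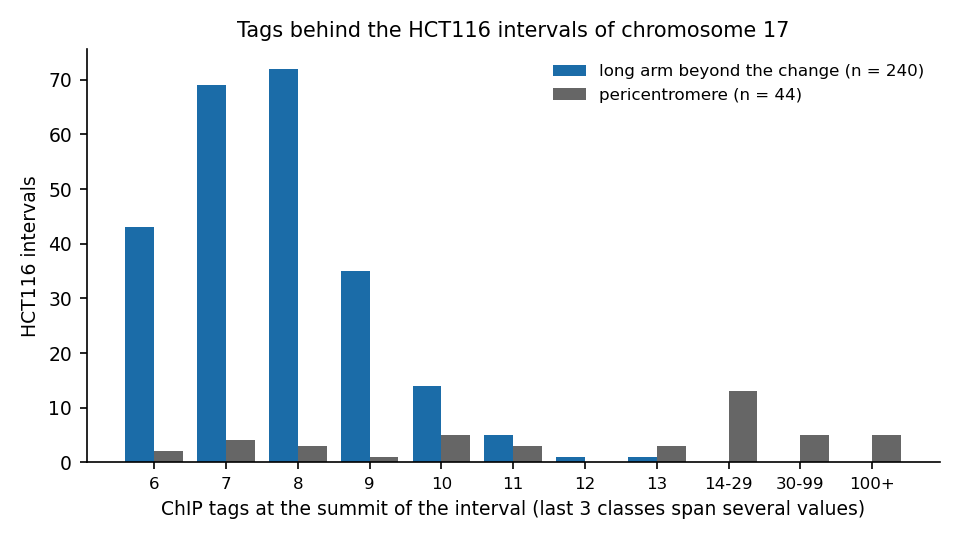
Number of HCT116 intervals (vertical axis) by the ChIP tags at their summit (horizontal axis, the last 3 classes spanning several values), blue for the long arm beyond the change (n = 240) and grey for the pericentromere (n = 44). The blue bars lie at 6 to 13 tags with most at 7 and 8, and the grey bars reach past 100.

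The strongest interval of the stretch lay at chr17:49993232-49993684 in DLX3, a homeobox transcription factor gene, with 13 tags and a −log10 q of 3.86, enriched 5.65-fold. The next lay at chr17:54593961-54594319, in no annotated gene, with 12 tags and a −log10 q of 2.93. The other coding genes with an interval at a q of 0.05 or less were CA10, PRKCA, CACNG4, RBFOX3, SLC38A10 and CCDC57, each with 10 or 11 tags and a −log10 q of 2.04. CA10 is a carbonic anhydrase-related protein without enzyme activity, PRKCA is protein kinase C alpha, CACNG4 is an auxiliary subunit of calcium channels and glutamate receptors, and RBFOX3 is the splicing factor NeuN of neurons. In all, 13 intervals of the stretch reached a −log10 q of at least 2 and 2 were enriched at least 5-fold, and the arms before the change had 0 of either.

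Genes were described by how many had an interval over their annotated span. Of the 1058 genes annotated beyond the change HCT116 intervals overlapped 130 (12.3%), where 2.26% of all annotated genes of the assembled chromosomes were overlapped. Of its 450 coding genes 96 were overlapped (21.3%), against 4.46% of coding genes across the chromosomes. On the long arm before the change 6 of 764 genes (0.785%) and 4 of 370 coding genes (1.08%) were overlapped, and on the short arm 9 of 811 genes (1.11%) and 7 of 337 coding genes (2.08%). LoVo intervals overlapped 9 of the 2715 genes of chromosome 17 (0.331%, against 0.436% across the chromosomes) and 7 of its 1169 coding genes (0.599%, against 0.769%), none of them beyond the change. No gene was overlapped in both lines. With 9 LoVo genes, and 148 of the 2715 genes (5.45%) overlapped in HCT116, that count says little about the chromosome. Since the stretch was found by its interval density, the high share of overlapped genes there follows from the count and adds nothing to it.

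The intervals lay in genes about as often as the genes' length would have it. Of the 240, 165 (68.8%) overlapped an annotated gene, and genes covered 67.0% of the stretch. Coding genes of chromosome 17 with an HCT116 interval had a median length of 43.5 kb and those without 14.2 kb. The median distance from the 240 summits to the nearest annotated start was 23.9 kb, with 16 (6.67%) within 1 kb and 49 (20.4%) within 5 kb. Among intervals on other chromosomes that could be matched to a start, 4.42% of 2804 in HCT116 lay within 1 kb and 10.3% within 5 kb. The few HCT116 intervals before the change were no further from starts. Within 1 kb lay 1 of 13 on the short arm (7.69%) and 2 of 8 on the long arm (25%), and within 5 kb 2 (15.4%) and 4 (50%).

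The genes with 4 or more HCT116 intervals spanned 133.8 to 676.3 kb. Genes with fewer intervals included shorter ones, such as BAHCC1 with 3 over 70.9 kb and FASN with 2 over 19.9 kb. CA10 had 12 HCT116 intervals over its 529.7 kb, or 22.7 per Mb, with 6 to 10 tags each, a median fold enrichment of 3.13 and 5 at a −log10 q of 0. Its intervals began between positions 51667012 and 52141589, inside the 50 to 55 Mb window. RBFOX3 had 9 over 576.2 kb, or 15.6 per Mb, with 6 to 11 tags. SEPTIN9 had 5 over 219.1 kb, or 22.8 per Mb, with 7 to 9 tags, and the best had a −log10 q of 1.27. SLC39A11, a zinc transporter, had 5 over 446.7 kb, and RPTOR, the raptor subunit of the growth-regulating kinase complex mTORC1, had 4 over 421.5 kb. MAPT, the gene of the microtubule protein tau, had 4 over 133.8 kb, or 29.9 per Mb, of 7 to 9 tags. LRRC37A2 also had 5, but its annotated span of 676.3 kb runs across WNT3 and WNT9B, whose intervals are among those 5, and it belongs to a duplicated family whose reads are hard to place. None of these genes had a LoVo interval.

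The lists of genes chosen for roles that bear on the study gave small counts. Of 34 genes of the cytoskeleton and migration, 17 lay beyond the change, and 8 of those had an HCT116 interval, where 21.3% of all coding genes beyond the change and 4.46% of those on all chromosomes had one. They were ITGA3 and ITGB4, integrin subunits that attach cells to the matrix, BAIAP2, an adaptor of the actin cytoskeleton, ARHGAP27, ARHGDIA, DNAH17, a dynein heavy chain, MYO15B and SEPTIN9. None of the 17 others had an HCT116 interval, and none of the 8 reached a q of 0.05. LoVo intervals, which overlapped 0.769% of coding genes on all chromosomes, fell in 3 of the 34, DNAH9, MYO18A and ARHGAP23, all before the change. These 3 intervals had 11, 8 and 10 tags and a −log10 q of 0. They lay in long genes of 371.3, 109.3 and 93.1 kb, where coding genes of chromosome 17 without an HCT116 interval had a median of 14.2 kb. Gene length was not taken into account in the counts of either line. Of 28 cancer genes, 13 of them beyond the change, HCT116 had an interval in 2 (7.14%, against 9.32% of all coding genes of chromosome 17), MSI2, an RNA-binding protein, and RNF213, and LoVo in none. Of 14 genes of MAP kinase and TGF-beta signalling HCT116 had intervals in 2 (14.3%, against the same 9.32%), PRKCA and MAP2K3, a kinase upstream of p38. Of 15 listed genes of the HOXB cluster, all beyond the change, 2 (13.3%, against 12.3% of all genes beyond the change) had an HCT116 interval, HOXB3 and HOXB-AS4. The list leaves out MIR196A1, which lies under the same interval as HOXB-AS4. The 7 genes of SUMO and Polycomb, the 6 lipid transporter genes of the ABCA group, the 90 keratin genes and the 21 chemokine genes had none in either line, and of the last 2 lists only 1 gene lay beyond the change. Of the SUMO and Polycomb genes 4 lay beyond it, and all 6 ABCA genes did, where 21.3% of coding genes were overlapped in HCT116. Before it HCT116 overlapped 1.11% of genes on the short arm and 0.785% on the long arm. LoVo overlapped 0.331% of the genes of chromosome 17. At these shares a count of 0 in such short lists says little about their members. Of 40 genes of duplicated families 2 (5%, against 5.45% of all genes of chromosome 17) had HCT116 intervals, LRRC37A and LRRC37A2.

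LoVo intervals on the arms numbered 11, of which 10 had a −log10 q of 0. The highest, at 0.323, lay in ALKBH5, which encodes an RNA demethylase. The others in genes lay in RPH3AL, DNAH9, MYO18A, RFFL with the read-through RAD51L3-RFFL, ARHGAP23 and HROB. Outside the pericentromere no LoVo interval of chromosome 17 overlapped an HCT116 interval, a count that rests on these 11. On all assembled chromosomes, pericentromeres included, 35.7% of LoVo and 9.45% of HCT116 intervals had a partner. No such share is given for the arms of other chromosomes.

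The pericentromere, 21 to 28 Mb, was the one stretch that both lines filled. HCT116 had 44 intervals there, or 6.29 per Mb, and LoVo 28, or 4 per Mb. The HCT116 density was thus about that of the stretch beyond 45 Mb, with stronger intervals: the median was 14 tags and the maximum 321, and 27 of 44 (61.4%) had a q of 0.05 or less. In LoVo the median was 19.5 tags, the maximum 407, and 15 of 28 (53.6%) had such a q, where 32.5% of all LoVo intervals did. All LoVo intervals of chromosome 17 at that level lay here, and so did 27 of the 43 in HCT116. Local input background varied widely. It stood at its genome-wide mean for 17 of 44 intervals in HCT116 and 8 of 28 in LoVo, its median in pileup units was 1.999 against a mean of 1.25 in HCT116 and 2.17 against 1.17 in LoVo, and it reached 49.4 times the mean in HCT116 and 107 times in LoVo. Its part in these calls was not tested. At the lower edge the last HCT116 interval outside lay at chr17:19852211-19852470 (−log10 q 0.0148) and the first inside at chr17:21293571-21293980 (0). At the upper edge the last inside lay at chr17:26940618-26940976 (4.83) and the first outside at chr17:31841086-31841435 (0), 4900 kb further on.

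Intervals that overlapped between the lines by at least 1 base numbered 16 pairs, and all 16 lay in the pericentromere. They were 5.25% of all HCT116 intervals of the chromosome and 41.0% of those of LoVo, where on all assembled chromosomes 9.45% (HCT116) and 35.7% (LoVo) had a partner. They made up 36.4% of HCT116's 44 and 57.1% of LoVo's 28 in the pericentromere. Their summits lay a median of 17 bases apart and at most 136, with 12 of 16 pairs within 50 bases. The −log10 q was higher in HCT116 in 14 of the 16 pairs and the fold enrichment in 11, with medians of 4.27 in HCT116 and 3.13 in LoVo. Tags at the summit went together between the lines (Spearman's coefficient 0.958 over 16 pairs), while fold enrichment did so little (coefficient 0.135). Median local input background at these pairs was 6.50 pileup units in HCT116 and 5.50 in LoVo, against genome-wide means of 1.25 and 1.17. Its part in the tag counts was not tested. Both coefficients are descriptions over intervals of the same 2 ChIP libraries.

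**Figure D5:**
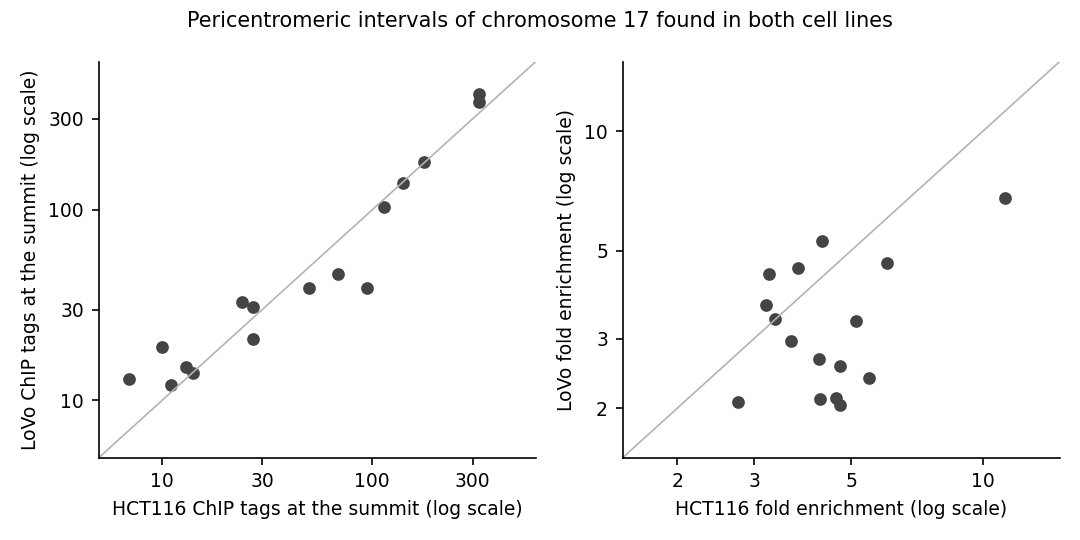
ChIP tags at the summit (left) and fold enrichment (right) of the 16 pericentromeric interval pairs, HCT116 on the horizontal and LoVo on the vertical axis, all axes logarithmic, with a grey line of equality. Tags run along the line from about 10 to over 300, and most fold enrichment points lie below the line, higher in HCT116 in 11 of 16 pairs.

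The strongest pair lay at chr17:26619281-26620261 in HCT116, with 321 tags and a −log10 q of 109, enriched 5.49-fold. In LoVo its partner had 366 tags and a −log10 q of 25.6, enriched 2.38-fold. The second, at chr17:26603636-26604479, also had 321 tags in HCT116 with a −log10 q of 91.6, and 407 tags in LoVo with 21.8. Local input background was high at both. It stood at 41.4 times its genome-wide mean in HCT116 and 85.3 times in LoVo at the strongest pair, and at 49.4 and 107 times at the second. The highest fold enrichment of the chromosome was at chr17:26573008-26573345, 11.3 with 27 tags in HCT116 and 6.78 with 21 tags in LoVo, and there the local background of both lines stood at its genome-wide mean. None of the 16 pairs lay in an annotated gene. The 28 HCT116 intervals of the pericentromere without a LoVo partner had a median of 11 tags, a median −log10 q of 1.74 and a median fold enrichment of 3.86, against 38.5 tags, 11.4 and 4.27 for the 16 with one. In LoVo the 12 without a partner had fewer tags and a lower −log10 q, with medians of 14.5 and 0.902 against 36 and 3.89, but a higher fold enrichment, 3.71 against 3.13. In this stretch genes covered 14.9% of the length, and 5 of 44 intervals overlapped a gene in HCT116 and 1 of 28 in LoVo. The LoVo one, at chr17:22384208-22384686 in the uncharacterised gene LOC107987246, had 20 tags and a −log10 q of 3.86 and was the only LoVo interval of chromosome 17 at a q of 0.05 or less that lay in a gene. The HCT116 ones included 2 in MAP2K3 of 6 and 7 tags and 2 in the ubiquitin pseudogene UBBP4, the stronger with 13 tags and a −log10 q of 2.07.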

How the data were processed

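HCT116 and LoVo PGCCs gave 1 S100A10 ChIP and 1 input library each. The CoCl2 dose and time are those of the sample labels; the study's methods describe another dose and repeated treatment. The authors called peaks with MACS2 2.1.0 (2.1.0.20150420 per the file headers) at a p-value of 0.005 per the file headers, extending tags to 260 (HCT116) and 281 (LoVo) bases. The study's methods name another p threshold, and the values in the lists fit the header. The aligner is not given in the sources used here. The deposited lists give the summit pileup (signal), fold enrichment (a ratio), and p and q as −log10. The names of the p and q columns are damaged in both lists, and both were read as −log10 from their place and values. No build is named in the lists. Unplaced sequence names are those of GRCh38, and RefSeq GRCh38.p14 gave genes, promoters and microRNAs.

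The members and gene lists were chosen with earlier results of these data known. Tags were the pileup divided by the library scaling factor (0.903 and 0.654), which gave whole tags within 0.02 at 100% of summits. Local background was recovered from the pileup and the fold enrichment with the pseudocount of 1 of MACS2, and counted as the mean within 0.02. The change in density was the 1 Mb grid point, at least 5 Mb from each end of the arms, with the highest Poisson likelihood of the HCT116 intervals. The code was tested on simulated data. The chromosome was ended at 83240804, the end of its last annotated gene. Genes were named by rule where they held 1 of the 10 highest intervals of a line, had an interval in both lines, were coding with an interval at a q of 0.05 or less, or belonged to a list and had an interval. The genes with 4 or more HCT116 intervals, those with a promoter or hairpin in an interval and the remaining LoVo genes were named after their values were seen. A gene here is its annotated span, with exons and introns not told apart. Ratios carry exact binomial 95% intervals. Scripts ran in Python 3.11.15 with pandas 2.3.3, numpy 2.4.6, matplotlib 3.10.9 and scipy 1.17.1. The alternatives tried were stricter q and fold thresholds, other pericentromere limits, every interval start as a candidate position, other overlap rules, clustering and other denominators.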

Additional observations from a re-analysis of the deposited data

Results flagged for a closer look

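HCT116 and LoVo stood on opposite sides of equality in 2 ratios of chromosome 17, and the difference between the lines was not tested, since each had 1 ChIP library. Beyond the 45 Mb boundary the interval density was 11.4 times that before it in HCT116 and 0.221 times in LoVo. On the long arm it was 7.25 times that of the short arm in HCT116 and 0.665 times in LoVo. With 22 to 27 Mb kept apart in place of 21 to 28 Mb the arm ratio was 3.59 in HCT116 and 0.228 in LoVo, and with the pericentromere split at 25 Mb it was 2.84 and 0.452. The LoVo ratios of 0.221 and 0.665 rest on 11 intervals and their 95% intervals include 1. No such interval was computed for the ratios under other pericentromere limits.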

How the results depend on the processing

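Of 96 alternative values, 63 stayed within the counting interval or within 1.5 times the count, 33 moved and 0 reversed. The count of 0 says little, since only a density ratio could reverse, by crossing equality. The density ratios gave no value at the stricter q and fold thresholds. Each value was set against the main value of its own line. The turn in the order of the shares at a fold enrichment of at least 5 was therefore counted as moved. A further 13 alternatives gave no value. For the ratios no interval was left on the short arm or before the change, and for the position too few arm intervals were left. At a q of 0.05 or less, a −log10 q of at least 2 and a fold enrichment of at least 5, HCT116 kept 43, 38 and 11 intervals of chromosome 17 (5.95%, 6.02% and 4.10% of those on assembled chromosomes) in 10, 9 and 1 genes, and LoVo 15, 12 and 4 in 1 gene each time, with LoVo shares of 5.03%, 5.17% and 6.25%, so that at that fold LoVo's share was the higher. At a q of 0.05 or less the change fell at 49 Mb, the shares overlapping the other line were 23.3% in HCT116 and 66.7% in LoVo, median fold enrichment was 4.45 and 4.22, median tags 13.0 and 33.0, and LoVo's median local background 3.999. Outside 21 to 28 Mb the overlap was 0 in both, and LoVo's median was 10 tags. The HCT116 share was 10.7% with intervals within 10 kb joined, 7.59% without the pericentromere and 7.35% of the whole list, and LoVo's was 1.12% without the pericentromere. The ratio of long to short arm in HCT116 was 3.59 with 22 to 27 Mb kept apart and 2.84 with the pericentromere split at 25 Mb, and in LoVo 0.228 and 0.452, since intervals between 21 and 28 Mb then count to the arms. Alternatives chosen after seeing the data (without the 50 to 55 Mb window, without the first 2 Mb beyond the change, more changes fitted) left the direction as it was. No paired analysis was possible because each line had 1 ChIP and 1 input library and no test was made. Most HCT116 calls on the arms rest on 6 to 9 tags, and LoVo, the deeper ChIP library, had no call under 8. The part of depth was not tested, and copy number, mappability and the input's own coverage along the chromosome were not analysed here.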
